A study of Mus musculus with 16 samples.

Results

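The duplicated segment of mouse chromosome 16 in Dp16 mice carries 10 genes that regulate transcription or chromatin and are described here: Hmgn1, Brwd1, Morc3, Hlcs, Gabpa, Ets2, Bach1, Zbtb21, Nrip1 and Son. They were chosen by their position and by what their products are known to do, with earlier results of these data known. They are 10 of 384 genes of the count table in the segment, 147 of them protein-coding, and of 55385 genes in all. Poly-A RNA from cortex was sequenced in 16 mice, all aged 5 months, with 1 library per animal and 4 animals per genotype. The genotypes were wild-type C57BL/6J, Dp16, 5xFAD, and 5xFAD-Dp16. Wild-type, Dp16 and 5xFAD groups held 2 males and 2 females each, while the 4 animals of 5xFAD-Dp16 were males. Dp16 mice have 3 copies of a segment that corresponds to most of human chromosome 21, running here from 75540514 to 97962622 on chromosome 16, and 2 copies of the rest of the genome. 5xFAD mice carry human amyloid precursor protein and presenilin transgenes with familial Alzheimer mutations, expressed in neurons from the Thy1 promoter. All values are levels of messenger RNA in bulk tissue, where fewer cells of a type and less RNA per cell cannot be told apart.

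Regulators of this kind act on many other genes, so their own levels are followed here together with those of their known partners and targets. Some bind DNA at short motifs, others bind nucleosomes or modified histones, and others join complexes without touching DNA themselves. With 3 copies in place of 2, a transcript made in proportion to its gene copies would be 1.5-fold higher, which is 0.585 on the log2 scale.

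The promoters of the members are shown first, because several members bind DNA at known motifs that members' own promoters could hold. GABPA and ETS2 belong to the ETS family, which binds around a GGAA core, and BACH1 represses genes from the antioxidant response element. In RefSeq's table of promoters, each 250 bases before to 50 bases after the start on build GRCm38.p6, all 10 genes were found. The motifs searched on both strands were CCGGAAG for ETS factors, TGACNNNGC for the antioxidant response element, GGGCGG for the GC box bound by SP1 and TATAAA for the TATA box. The sequences below are the bases just before the start, except for Gabpa, where a short stretch around the only ETS match is given. They are written 5′ to 3′ along the gene's own strand, and capitals mark matches to the ETS, antioxidant response element or GC box letters, some of them as the reverse complement.
Gabpa, chr16:84835021-84835047, + strand: agggtaagtgCTTCCGGgtccctcagc
Nrip1, chr16:76373828-76373927, - strand: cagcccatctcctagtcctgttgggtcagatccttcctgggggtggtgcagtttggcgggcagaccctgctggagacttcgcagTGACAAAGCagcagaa
Bach1, chr16:87698854-87698944, + strand: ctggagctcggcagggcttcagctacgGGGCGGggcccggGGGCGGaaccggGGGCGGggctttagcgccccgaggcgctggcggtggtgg
Hmgn1, chr16:96127730-96127825, - strand: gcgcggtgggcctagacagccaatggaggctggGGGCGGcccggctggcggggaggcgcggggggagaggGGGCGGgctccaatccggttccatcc
Zbtb21, chr16:97962623-97962722, - strand: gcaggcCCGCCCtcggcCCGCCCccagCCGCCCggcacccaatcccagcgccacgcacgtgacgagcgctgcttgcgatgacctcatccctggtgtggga
Morc3, chr16:93832021-93832120, + strand: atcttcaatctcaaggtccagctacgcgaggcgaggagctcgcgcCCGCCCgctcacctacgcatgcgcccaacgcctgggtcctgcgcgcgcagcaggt

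The ETS letters were found in 1 of the 10 promoters, that of Gabpa itself, against 9.14% of 27024 promoters and 16.1% of those of tested genes. The match is a reverse complement at position -93 from the RefSeq start. It lies inside the Gencode gene model, which starts at 84834925. The antioxidant response element letters were found in 1, that of Nrip1, against 12.44% of all promoters and 14.3% of those of tested genes. GC boxes were found in 7 of the 10, against 35.92% of all promoters and 61.7% of those of tested genes, a share near that of the members. The promoter of Hmgn1 held 5 and that of Bach1 held 4. No member held the TATAAA letters, found in 14.16% of all promoters and 7.5% of those of tested genes. The median GC content of the 10 promoters was 67.5%, against 52.7% over all promoters and 60.7% over those of tested genes. Their median ratio of observed to expected CpG was 0.91, against 0.39 and 0.74. The Nrip1 promoter stood apart with a ratio of 0.29. A match is a description of letters and not of a bound site.

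The libraries held 12483286 to 20385010 counted reads. As a check of the labels, Thy1, whose promoter drives the transgenes, had group means of 886.2 CPM (wild-type), 863.4 (Dp16), 1640.0 (5xFAD) and 1647.0 (5xFAD-Dp16). App, the amyloid precursor gene of the segment, had group means of 1154.9, 1614.2, 836.8 and 1748.2 CPM in the same order, with SDs from 156.4 to 272.7 (n = 4). CPM here are counts scaled by each library's total and its TMM factor. Wild-type replicate 2 and 5xFAD replicate 3 had the lowest median correlation with the other libraries, 0.939 and 0.938, against 0.953 to 0.972 for the rest. Some libraries leaned towards long genes and others towards short ones. The length measure used below is Spearman's rho, across genes, of gene length with the log2 ratio of a library to the mean library. It was lowest for 5xFAD replicate 3 (-0.462) and highest for 5xFAD-Dp16 replicate 1 (0.451), and positive for each of the 4 libraries of 5xFAD-Dp16.

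All 10 transcripts were detected in every library, with 30 counted reads for Hlcs in its shallowest library and 4740 for Son in its deepest, and all 10 passed the filter on low counts. Per gene length, in the authors' deposited RPKM, Hmgn1 had the highest level, at 48.4 ± 9.06 (SD, n = 4) in wild-type cortex. Son followed at 13 ± 2.12, Ets2 at 8.31 ± 2.99, Morc3 at 5.23 ± 0.877 and Brwd1 at 4.43 ± 0.487. Zbtb21 (2.97 ± 0.501), Gabpa (2.55 ± 0.647) and Nrip1 (2.39 ± 0.658) lay close together, and Bach1 (1.43 ± 0.51) and Hlcs (0.772 ± 0.374) had the lowest levels. Of the 9 steps in this order, the wild-type ranges of neighbouring genes did not overlap at 2, between Hmgn1 and Son and between Brwd1 and Zbtb21. At the other 7 steps the ranges overlapped.

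**Figure D1:**
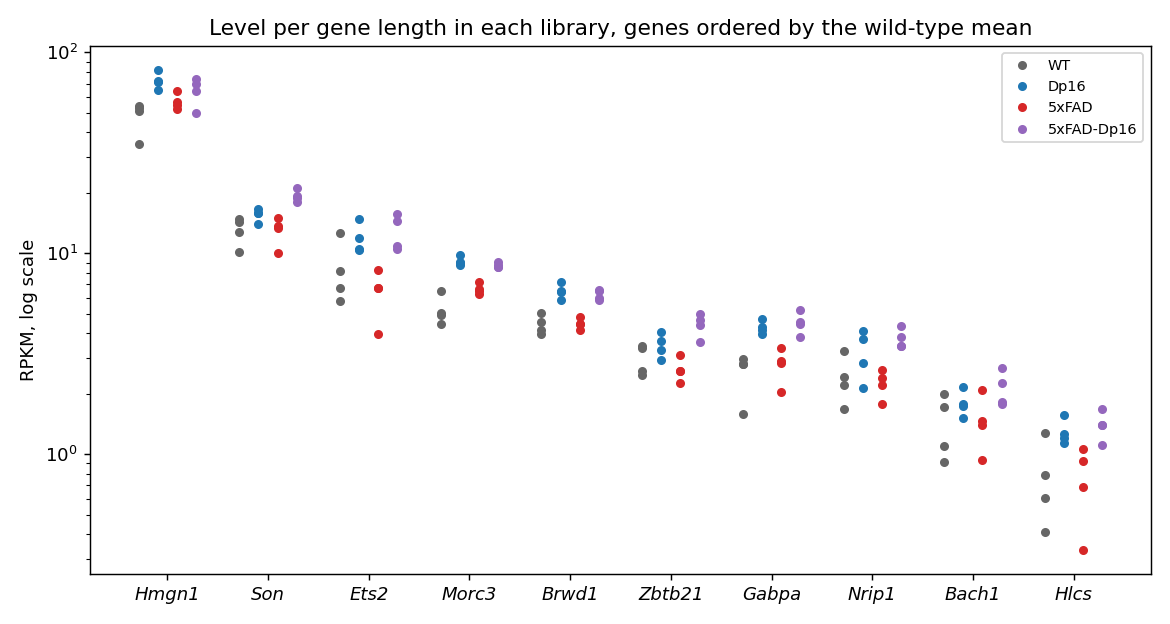
Level of the 10 regulators in RPKM, on a log axis, with 1 point per library and colours for the 4 genotypes, genes ordered by the wild-type mean. Hmgn1 lies between 34.9 and 81.8 RPKM in all libraries and Hlcs between 0.335 and 1.68.

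The first question was whether the regulators' transcripts follow their gene copies when the duplication is present alone. In Dp16 against wild-type, the difference was positive for 10 of 10 members, with a median log2 difference of 0.543, that is 1.46-fold. The other 95 tested genes of the segment had a median of 0.566, with 84 positive, and all 17019 tested genes a median of 0.002, so the regulators' median lay close to that of their neighbours. By edgeR's quasi-likelihood test, 1 member was called higher (Morc3) and none lower, against 0.0176% of all genes called higher. DESeq2 called 3 members higher (Morc3, Brwd1 and Gabpa), against 0.17% of all genes. The groups did not overlap for 4 members (Morc3, Brwd1, Hmgn1 and Gabpa), each higher in Dp16, against 1.44% of all genes. For 7 members the unadjusted p was under 0.05, all with a positive difference, against 2.48% of all genes.

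On the 5xFAD background, comparing 5xFAD-Dp16 with 5xFAD, the difference was again positive for 10 of 10 members, with a median of 0.542 (1.46-fold). With the trend of expression with gene length removed, the median fell to 0.255 and Brwd1 turned to -0.085. In that setting 0 members were called, against 0.0176% of all genes. Hmgn1, at 0.02, turned to -0.045, -0.013 and -0.006 without 5xFAD-Dp16 replicate 2, 5xFAD-Dp16 replicate 4 or 5xFAD replicate 4. The other segment genes had a median of 0.492, with 79 of 95 positive, and all tested genes a median of -0.002. By edgeR, 0 members were called, against 0.0% of all genes, since no gene passed; the members' adjusted p ran from 0.155 to 0.944. The unadjusted p was under 0.05 for 7 members, all positive, against 11.8% of all genes. The groups did not overlap for 7 members (Morc3, Brwd1, Gabpa, Ets2, Nrip1, Son and Zbtb21), each higher in 5xFAD-Dp16, against 5.59% of all genes. DESeq2 called 3 members higher (Ets2, Son and Zbtb21), against 2.68% of all genes.

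The number of members called in this comparison differed between settings. All 5xFAD-Dp16 animals were male, and with no sex term edgeR called 0 members, against 0.0353% of all genes called higher. Among males alone, 4 against 2 animals, a fit that also holds fewer samples, edgeR called 5 members higher (Gabpa, Ets2, Son, Zbtb21 and Nrip1), against 12% of all genes. With a fit to these 2 groups alone it called 6, those 5 and Bach1, against 15.7% of all genes. With no filter on low counts it called 3 (Ets2, Son and Nrip1), against 4.64% of all genes. Hmgn1 turned to -0.039 among males and to -0.065 with these 2 groups alone. Summed markers of cortical excitatory neurons, all 5 of them detected in every library, ran from 421.4 to 818.7 CPM in 5xFAD and from 853.2 to 1300.5 in 5xFAD-Dp16, without overlap, and from 632.1 to 1256.4 in wild-type and 681.2 to 1158.1 in Dp16. Among all genes, 5.59% lay apart in that direction between 5xFAD and 5xFAD-Dp16. Averaged over both backgrounds, the duplication's difference was positive for 4 of these 5 markers, with a median of 0.36. The part of these markers in the members' values was not tested. Summed choroid plexus markers reached 716.6 CPM in 1 library of 5xFAD-Dp16, against at most 14.9 in 5xFAD.

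**Figure D2:**
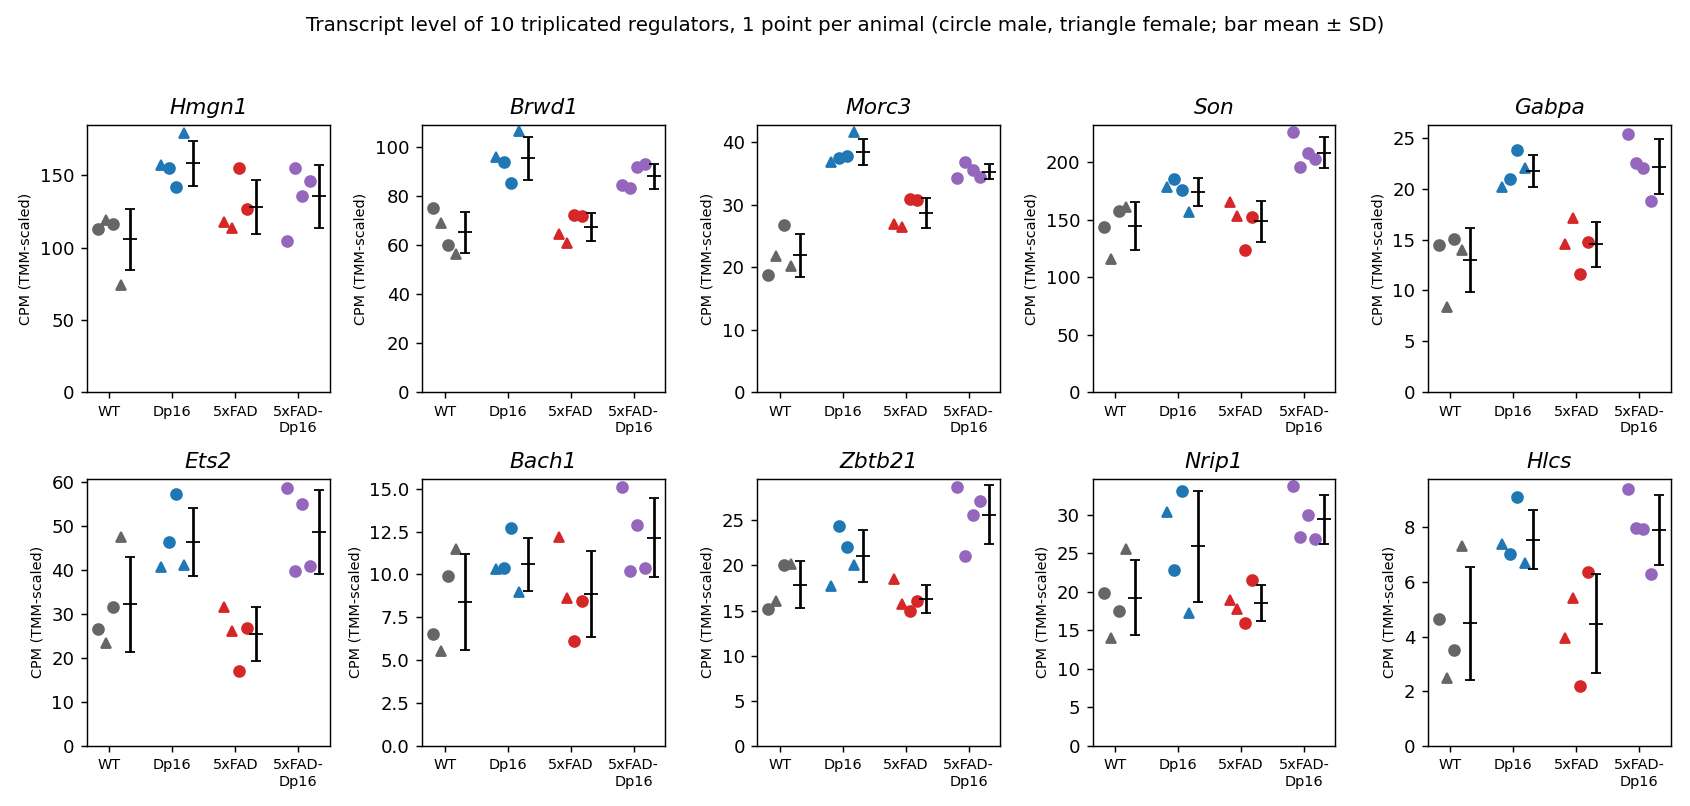
CPM of each regulator, 1 point per animal (circles males, triangles females) with the mean and SD beside each genotype; axes start at 0. Dp16 and 5xFAD-Dp16 lie above wild-type and 5xFAD for Brwd1, Morc3 and Gabpa with no overlap between carriers and non-carriers of the duplication.

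Averaged over both backgrounds, the duplication's difference was positive for all 10 members, with a median of 0.493 (1.41-fold), and the 95% interval of each excluded 0. With the length trend removed the median was 0.309 and 0 members were called. Of all genes 28 were then called, 24 of them higher, against 16 without that removal. The other segment genes had a median of 0.511, with 91 of 95 positive. By edgeR, 1 member was called higher (Morc3), against 0.094% of all genes, and none lower. The unadjusted p was under 0.05 for all 10, against 7.27% of all genes with a positive difference. With no sex term edgeR called 3 members (0.112% of all genes), with no filter on low counts 7 (2.51%) and among males 8 (8.28%). DESeq2 called 6 (Gabpa, Ets2, Brwd1, Son, Morc3 and Zbtb21), against 0.511% of all genes. All 8 carriers lay above all 8 non-carriers for 3 members (Morc3, Brwd1 and Gabpa), against 0.118% of all genes. The interval held 1.5-fold for 8 of the 10, and lay below it for Hmgn1 (1.04 to 1.47-fold) and Son (1.13 to 1.48-fold). The animals of this average are those of both comparisons above, so it adds no independent sample.

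**Figure D3:**
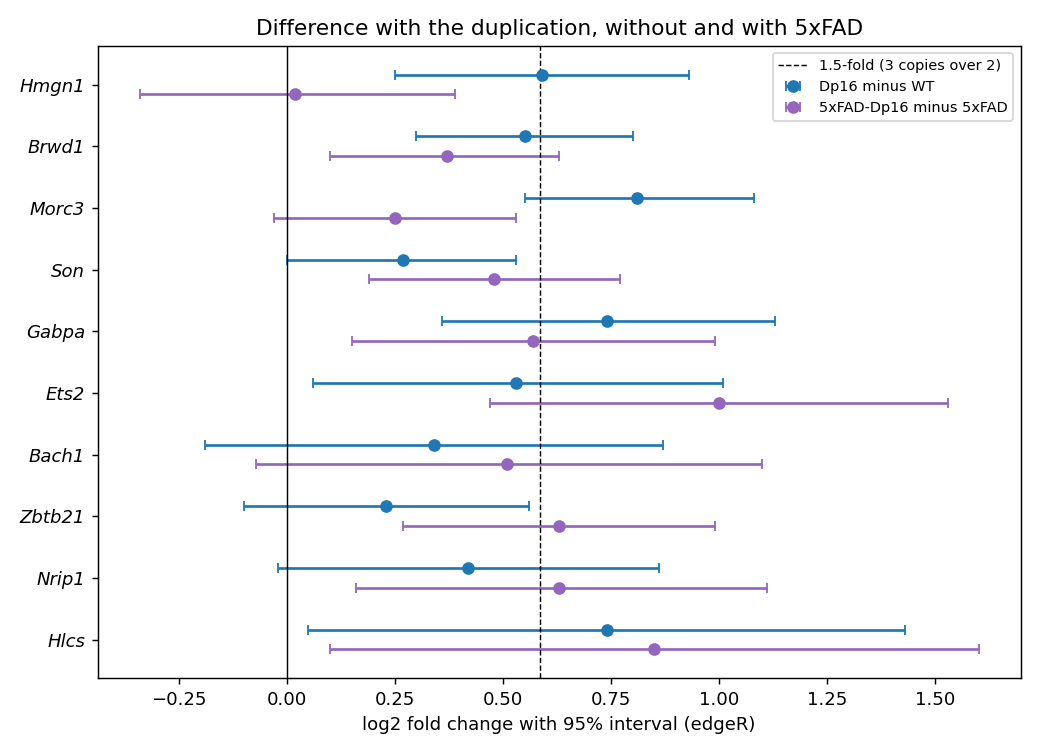
Log2 fold change of each regulator with its 95% interval from edgeR, for Dp16 minus wild-type and for 5xFAD-Dp16 minus 5xFAD; the solid line marks 0 and the dashed line 1.5-fold. The intervals hold 1.5-fold for 8 of 10 members in either comparison, and the 5xFAD-Dp16 value of Hmgn1 (0.02) lies near 0.

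Among the members that act on nucleosomes, Hmgn1 encodes a small protein that binds nucleosomes and loosens chromatin (ENSMUSG00000040681.16, minus strand, chromosome 16, 96120618 to 96127729). Its level in wild-type libraries was 113.2, 119.0, 116.6 and 74.0 CPM, against 157.1, 155.1, 141.7 and 179.4 in Dp16. In 5xFAD it was 117.7, 113.3, 154.8 and 126.5 CPM, against 104.5, 155.3, 135.5 and 146.2 in 5xFAD-Dp16. Every Dp16 library was thus above every wild-type library, while the groups with 5xFAD overlapped. The log2 difference was 0.59 (SE 0.16, adjusted p = 0.621) without 5xFAD and 0.02 (SE 0.17, adjusted p = 0.944) with it, where the 95% interval reached from 0.791 to 1.31-fold. Hmgn1 is the shortest of the 10 transcripts, with 2174 exonic bases.

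Brwd1 encodes a bromodomain protein that reads acetylated histones (ENSMUSG00000022914.17, minus strand, chromosome 16, 95992092 to 96082526), and is the longest of the transcripts at 14634 exonic bases. Its wild-type libraries gave 75.1, 69.0, 60.1 and 56.5 CPM, and Dp16 libraries 95.8, 94.1, 85.2 and 106.4. With 5xFAD alone they gave 64.7, 60.8, 72.1 and 71.9 CPM, and with both 84.4, 83.2, 92.0 and 93.0. No carrier of the duplication fell within the range of the non-carriers. The log2 difference was 0.55 (SE 0.12, adjusted p = 0.229) without 5xFAD, 0.37 (SE 0.13, adjusted p = 0.156) with it, and 0.46 (SE 0.09, adjusted p = 0.0532) on average. With the trend of expression with gene length removed, the value with 5xFAD turned to -0.09 and the average came to 0.16. That removal followed gene length alone, while Brwd1 itself was lower within groups in libraries leaning to long genes (Pearson's r = -0.77). How far the removal suits Brwd1 was not tested.

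Morc3 encodes an ATPase of nuclear bodies that associates with methylated histone tails (ENSMUSG00000039456.10, plus strand, chromosome 16, 93832121 to 93876073). It measured 18.8, 21.8, 26.8 and 20.2 CPM in wild-type and 36.9, 37.5, 37.8 and 41.6 in Dp16. In 5xFAD it measured 26.9, 26.4, 30.9 and 30.8 CPM, and in 5xFAD-Dp16 34.3, 36.9, 35.6 and 34.5. The Dp16 libraries lay within a narrow band above every wild-type library, and the 5xFAD libraries lay between the wild-type mean of 21.9 and the carriers. Morc3 rose 1.76-fold in Dp16 (log2 0.81, SE 0.13, adjusted p = 0.0322) and had the largest log2 difference of the members there. On the 5xFAD background the value was 0.25 (SE 0.13, adjusted p = 0.249), with an interval from 0.981 to 1.45-fold, and the averaged value was 0.53 (SE 0.09, adjusted p = 0.0249).

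The call of Morc3 in Dp16 was lost when any 1 library of the 8 was left out except wild-type replicate 3, with adjusted p from 0.102 to 0.187 and log2 values from 0.73 to 0.84. It was also lost without the 2 libraries least like the rest (0.82, adjusted p = 0.0792). The averaged call of Morc3 was lost in 11 of 16 such fits, with adjusted p from 0.0505 to 0.095, and held without wild-type replicates 2, 3 or 4, Dp16 replicate 3 or 5xFAD replicate 3. The number of members called by edgeR on average reached 3 without wild-type replicate 2, where Gabpa (adjusted p = 0.0427) and Brwd1 were added. It also reached 3 without wild-type replicate 4, with Ets2 (0.027) and Brwd1, and 2 without Dp16 replicate 3. Over all genes, the fits without 1 library called 0 to 2 in Dp16 against wild-type and 10 to 43 on average. With all libraries 3 and 16 genes were called.

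Hlcs encodes holocarboxylase synthetase, which attaches biotin to carboxylases and has been described with chromatin (ENSMUSG00000040820.16, minus strand, chromosome 16, 94128882 to 94313571). It had the lowest counts of the 10, and its ranges were 2.48 to 7.31 CPM in wild-type, 6.68 to 9.11 in Dp16, 2.18 to 6.35 in 5xFAD and 6.28 to 9.42 in 5xFAD-Dp16. Both pairs of groups overlapped slightly. The log2 differences of 0.74 (SE 0.33) and 0.85 (SE 0.35) had wide intervals, from 1.04 to 2.70-fold and from 1.07 to 3.03-fold. Their adjusted p were 1.0 and 0.176.

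Among the DNA-binding factors, Gabpa encodes the DNA-binding subunit of GA-binding protein, an activator of nuclear genes for mitochondrial proteins and translation (ENSMUSG00000008976.16, plus strand, chromosome 16, 84834925 to 84863779). It measured 14.5, 8.34, 15.1 and 14 CPM in the wild-type libraries, and in the Dp16 libraries 20.2, 21.0, 23.8 and 22.0. The libraries of 5xFAD gave 14.6, 17.1, 11.6 and 14.8 CPM, those of 5xFAD-Dp16 gave 25.4, 22.5, 22.0 and 18.8. The lowest carrier, at 18.8, stood above the highest non-carrier, at 17.1. The log2 difference was 0.74 (SE 0.18, adjusted p = 0.405) without 5xFAD, 0.57 (SE 0.20, adjusted p = 0.156) with it and 0.66 (SE 0.13, adjusted p = 0.0982) on average.

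Gabpa shares its start region with Atp5j, an ATP synthase subunit on the opposite strand, and the gene models overlap by 701 bases. Atp5j had 85445 reads over all libraries against 5089 for Gabpa, and the strand setting of the counting is not given in the sources used here. Atp5j differed by 0.65 (SE 0.17, adjusted p = 0.603) without 5xFAD and by 0.06 (SE 0.18, adjusted p = 0.871) with it, so the values of the pair lay apart in the second comparison.

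Ets2 encodes an ETS family activator downstream of Ras and MAP kinase signalling (ENSMUSG00000022895.16, plus strand, chromosome 16, 95702075 to 95721051). Its level was 26.5, 23.3, 31.6 and 47.6 CPM in wild-type and 40.7, 46.3, 57.4 and 41.2 in Dp16. In 5xFAD it was 31.7, 26.2, 17.1 and 26.9 CPM, and in 5xFAD-Dp16 58.7, 39.9, 55.0 and 41.0. Wild-type replicate 4 lay inside the Dp16 range, while the groups with 5xFAD did not overlap. The log2 difference was 0.53 (SE 0.23, adjusted p = 1.0) without 5xFAD and 1.00 (SE 0.25, adjusted p = 0.155) with it, the largest of the 10 in that comparison. That value was 0.79 (adjusted p = 0.7) without 5xFAD replicate 3, which had the lowest level of Ets2.

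Bach1 encodes a haem-regulated repressor of antioxidant and iron genes (ENSMUSG00000025612.5, plus strand, chromosome 16, 87698945 to 87733346). It ranged from 5.53 to 11.5 CPM in wild-type, 9.0 to 12.7 in Dp16, 6.14 to 12.2 in 5xFAD and 10.2 to 15.1 in 5xFAD-Dp16, with overlap in both comparisons. The log2 differences were 0.34 (SE 0.25, adjusted p = 1.0) and 0.51 (SE 0.28, adjusted p = 0.262), and the interval held both 1.0 and 1.5-fold in each. The spread between animals limited what could be seen for this gene.

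Zbtb21 encodes a BTB domain zinc finger protein (ENSMUSG00000046962.16, minus strand, chromosome 16, 97943357 to 97962622), and its end is the end of the segment. It ranged from 15.2 to 20.2 CPM in wild-type and 17.7 to 24.4 in Dp16, and from 15 to 18.5 in 5xFAD and 21.1 to 28.7 in 5xFAD-Dp16. The log2 difference was 0.23 (SE 0.15, adjusted p = 1.0) without 5xFAD and 0.63 (SE 0.17, adjusted p = 0.155) with it. The gene models of Zbtb21 and C2cd2 overlap on the same strand over 19242 bases, so reads from bases that both share cannot be told apart. C2cd2, named here because of that overlap, had an averaged difference of 1.27 (SE 0.22, adjusted p = 0.0249).

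Nrip1 encodes a corepressor of nuclear receptors that recruits C-terminal binding proteins and histone deacetylases (ENSMUSG00000048490.14, minus strand, chromosome 16, 76287400 to 76373827). It ranged from 14 to 25.6 CPM in wild-type, 17.3 to 33.1 in Dp16, 16 to 21.6 in 5xFAD and 26.9 to 33.7 in 5xFAD-Dp16. Only the groups with 5xFAD were apart. The log2 differences were 0.42 (SE 0.21, adjusted p = 1.0) and 0.63 (SE 0.23, adjusted p = 0.157).

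Son encodes a large protein of nuclear speckles that supports splicing of weak introns (ENSMUSG00000022961.18, plus strand, chromosome 16, 91647506 to 91679221). Wild-type libraries gave 143.5, 115.9, 157.8 and 160.7 CPM, and Dp16 libraries 178.3, 185.2, 175.5 and 156.8. With 5xFAD alone the values were 165.1, 153.2, 123.6 and 152.5 CPM, and with both 226.6, 195.5, 208.3 and 202.9. All 4 5xFAD-Dp16 libraries stood above every library of the other groups, while Dp16 overlapped wild-type. The log2 difference was 0.27 (SE 0.12, adjusted p = 1.0) without 5xFAD and 0.48 (SE 0.14, adjusted p = 0.155) with it. Without 5xFAD the interval ended at 1.44-fold and did not hold 1.5. Its neighbour Donson overlaps it on the opposite strand by 2414 bases, with 1898 reads against 47587 for Son.

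**Figure D4:**
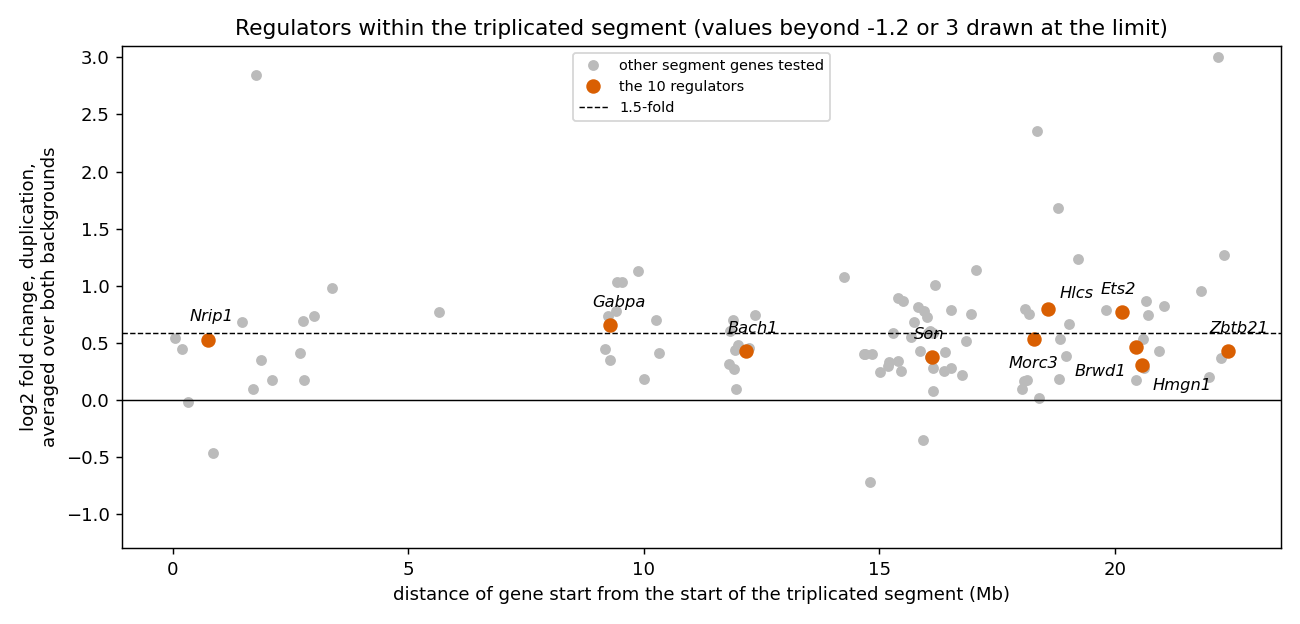
Averaged log2 difference with the duplication for all tested genes of the segment, against the distance of the gene's start from the start of the segment, with the 10 regulators in orange; the dashed line is 1.5-fold. The regulators lie between 0.31 and 0.80, within the spread of their 95 neighbours, from Nrip1 at 0.75 Mb to Zbtb21 at 22.4 Mb.

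The plot of averaged differences along the segment shows the members at both ends and in its middle. Hlcs, Ets2 and Gabpa had the 3 largest averaged log2 differences among the members, at 0.80, 0.77 and 0.66, and Hmgn1 and Son the smallest, at 0.31 and 0.38. Brwd1 and Hmgn1 start at 20.45 and 20.58 Mb from the segment's start, and differed by 0.46 (SE 0.09) and 0.31 (SE 0.12).

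The effect of 5xFAD itself on the regulators was measured with 2 and with 3 copies. In 5xFAD against wild-type, 0 members were called by edgeR and 0 by DESeq2, against 0.176% and 1.37% of all genes in either direction. By edgeR, 1 member had an unadjusted p under 0.05 with a positive difference, against 5.22% of all genes. That member was Morc3, with a log2 difference of 0.39 (SE 0.12, adjusted p = 0.283). The groups overlapped for all 10. Of all 17019 genes, they lay apart for 2.8% (476) with 5xFAD higher and for 456 with 5xFAD lower. Ets2 had the lowest value, -0.35 (SE 0.23, adjusted p = 0.596), and the members' median was 0.044.

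In 5xFAD-Dp16 against Dp16, 0 members were called by either tool, against 0.0176% of all genes by edgeR and 0.147% by DESeq2. By edgeR, 0 had an unadjusted p under 0.05, against 5.29%. The groups did not overlap for 1 member that was higher in 5xFAD-Dp16, Son (0.26, SE 0.13, adjusted p = 0.758), against 2.82% of all genes. They did not overlap for 1 that was lower, Morc3 (-0.17, SE 0.13, adjusted p = 0.764), against 2.61% of all genes. The members' median was 0.107.

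Whether the duplication's difference itself differed between the backgrounds was tested as an interaction, the difference with 5xFAD minus that without. By edgeR and by DESeq2, 0 members were called, against 0.0% of all genes by edgeR and 0.123% by DESeq2. By edgeR, 2 had an unadjusted p under 0.05, against 9.35% of all genes. Those 2 were Hmgn1 at -0.57 (SE 0.24, adjusted p = 0.522) and Morc3 at -0.56 (SE 0.18, adjusted p = 0.522), both smaller on the 5xFAD background. The interaction was positive for 6 of the 10, the highest being 0.46 (SE 0.33) for Ets2 and 0.40 (SE 0.23) for Zbtb21. The interaction for Morc3 ran from -0.63 to -0.50 and that for Hmgn1 from -0.69 to -0.37 when single libraries were left out.

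Between animals of the same genotype, the regulators did not vary alike. The plot of deviations against the library's length measure shows that Ets2, Bach1, Son, Nrip1 and Zbtb21 were higher in libraries where expression leaned to long genes. The coefficients of Hlcs and Gabpa were also positive, with the tests given below. Pearson's r over 16 libraries, after subtracting each group's mean, was 0.91 for Ets2 (Spearman's rho 0.88; exact permutation within groups, two-sided, p = 0.000115, adjusted over the 10 members 0.000382) and 0.89 for Bach1 (rho 0.91, exact permutation p = 1.81e-05, adjusted 0.000181). It was -0.89 for Hmgn1 (rho -0.85, exact permutation p = 6.33e-05, adjusted 0.000316) and -0.77 for Brwd1 (rho -0.78, exact permutation p = 0.0053, adjusted 0.0117). Brwd1 went with the short Hmgn1 in this although it has the longest transcript.

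Leaving out the 2 libraries farthest from the median of the deviations in this measure, wild-type replicate 4 and 5xFAD replicate 1, gave r of 0.85 for Ets2, 0.83 for Bach1, -0.85 for Hmgn1 and -0.72 for Brwd1. Son (r = 0.74, rho 0.79, adjusted exact permutation p = 0.019 and 0.00422), Nrip1 (0.72, 0.71, 0.0117 and 0.0147) and Zbtb21 (0.58, 0.59, 0.0432 and 0.0458) passed on both coefficients, with r of 0.68, 0.69 and 0.43 without those libraries. Hlcs passed on Pearson's r alone (0.67, adjusted exact permutation p = 0.0432; rho 0.58, adjusted p = 0.0789; r 0.63 without the 2 libraries). Gabpa (r = 0.52, rho 0.45, adjusted exact permutation p = 0.15 and 0.139, r 0.57 without them) and Morc3 (r = -0.41, rho -0.51, adjusted p = 0.271 and 0.118, r -0.28 without them) did not pass. Measured from their own group's mean, wild-type replicate 4 and 5xFAD replicate 3 were the farthest. Without these, a choice made after seeing the data, r was 0.85 for Ets2, 0.84 for Bach1, -0.8 for Hmgn1 and -0.69 for Brwd1. It was then 0.65 for Son, 0.63 for Nrip1, 0.5 for Zbtb21, 0.41 for Hlcs, 0.43 for Gabpa and -0.28 for Morc3, so that all 10 kept their sign and Hlcs moved most.

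**Figure D5:**
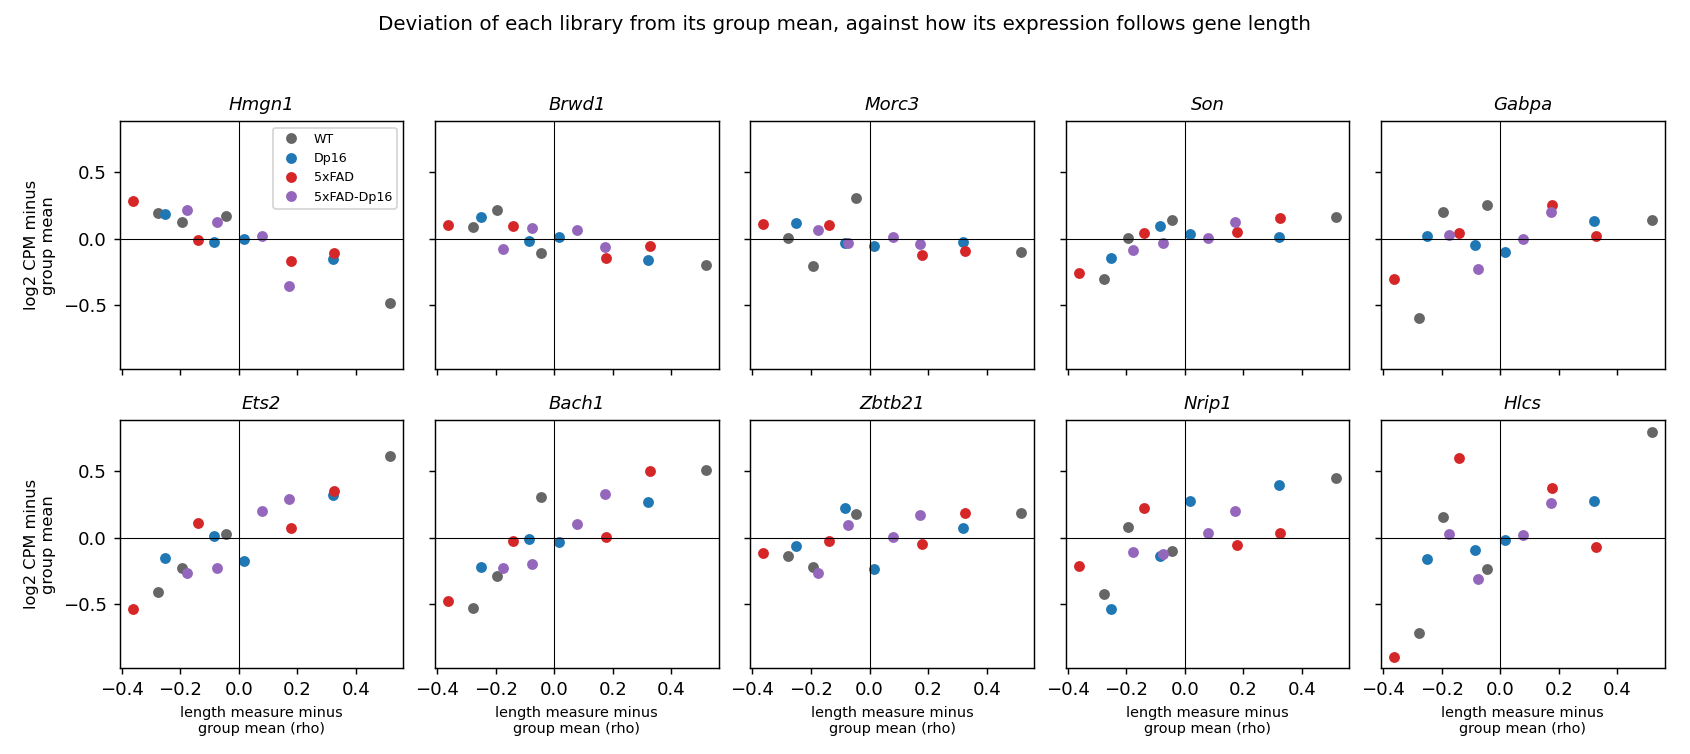
Each library's deviation in log2 CPM from its genotype's mean, against its deviation in the length measure (Spearman's rho with gene length), for the 10 regulators; colours are genotypes. Ets2 and Bach1 climb from left to right (r = 0.91 and 0.89) and Hmgn1 falls (r = -0.89).

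Of the 21 pairs among the 7 members with a positive coefficient, all 21 were positively correlated over the 16 libraries within groups, with r from 0.23 (Hlcs and Zbtb21) to 0.93 (Bach1 and Ets2). The 14 pairs of Brwd1 or Hmgn1 with one of those 7 were all negative, from -0.88 to -0.45. These pairings were formed after the values were seen and share the libraries and their depth. Members were sorted by their coefficient with the length measure in these same deviations. The signs of the pairs therefore follow in part from that choice and add no separate evidence.

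With the length trend removed from the counts, the members' median came to 0.439 in Dp16 against wild-type, 0.255 in 5xFAD-Dp16 against 5xFAD and 0.309 on average, and 0 members were called by edgeR in each. Of all genes, 0.00588%, 0.0176% and 0.165% were then called in either direction. The other segment genes had medians of 0.497, 0.441 and 0.479 in this setting. In 5xFAD-Dp16 against 5xFAD, Ets2 then had 0.86, Hlcs 0.58 and Zbtb21 0.35, while Son came to 0.07, Morc3 to 0.09 and Hmgn1 to 0.10. The part of the length trend in the members' differences was not otherwise tested.

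The genes most like each member were taken as those with the highest Pearson correlation of log2 CPM over the 16 libraries, group differences included. For Ets2 they were App (0.962), Synj1 (0.947) and Dop1b (0.940), all in the segment. Son was most like Usp25 (0.937), Synj1 (0.936) and Slc5a3 (0.928), and Brwd1 most like Rwdd2b (0.922), Tmem50b (0.908) and Sod1 (0.898), again all in the segment. Hmgn1 was most like Smim11 (0.928), Atp5j (0.926) and Mrps6 (0.915), likewise segment genes.

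The pattern of Gabpa was nearest to Ltn1 (0.924), Klhdc8b on chromosome 9 (0.893) and Kcnj6 (0.881), with Ltn1 and Kcnj6 in the segment. For Bach1 all 3 lay elsewhere: Cmtm4 (0.974), Itpkb (0.945) and Ccdc6 (0.942). Those of Nrip1 were Vps39 (0.943), Dscam (0.919) and Zfp512 (0.898), and those of Zbtb21 were Mtmr9 (0.911), Ncam2 (0.906) and Gpd1l (0.892), with Dscam and Ncam2 in the segment. Hlcs was nearest to Pcdhgb4 (0.93), Aco1 (0.901) and Arid5b (0.898), and Morc3 to Hoga1 (0.854), nonagouti (0.852) and Ripk4 (0.85), of which Ripk4 lies in the segment.

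Other regulators of the segment, a list of 17 of which 16 were tested, had an averaged median of 0.54 with 16 of 16 positive. By edgeR, 1 was called higher, against 0.094% of all genes. An unadjusted p under 0.05 was found for 8, against 15% of all genes in either direction, and DESeq2 called 2, against 0.77%. The 1 called by edgeR was Dyrk1a, a kinase that acts on transcription and splicing factors, which rose (log2 0.67, SE 0.08, adjusted p = 0.00107). Its mean CPM was 65.1 ± 7.35 (SD, n = 4) and 99.6 ± 4.00 without 5xFAD, in wild-type and Dp16, and 69.2 ± 5.66 and 115.9 ± 7.19 with it. Orthologs of human chromosome 21 regulators that lie outside the segment and keep 2 copies had an averaged median of 0.11 over 6 tested genes, with 4 positive and 0 called by edgeR or DESeq2, and 0 with an unadjusted p under 0.05.

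The known partners and targets of the members were followed in lists formed from their known roles, with earlier results of these data known, and 0 of their genes were called by edgeR in the averaged difference, against 0.094% of all genes. The counts of genes at an unadjusted p under 0.05 below stand against 15% of all genes, and those called by DESeq2 against 0.77%. Targets of BACH1, such as the antioxidant genes Hmox1 and Nqo1, had a median of 0.01 over 17 tested genes, with 10 positive, 3 at an unadjusted p under 0.05 and 0 called by DESeq2. Of them, Gclm had 0.20 (SE 0.09, adjusted p = 0.322) and Prdx1 -0.34 (SE 0.15, adjusted p = 0.322). Partners and antagonists of BACH1 had a median of 0.25 over 8 genes, 7 of them positive, with 3 at an unadjusted p under 0.05 and 0 called by DESeq2. The small Maf genes Maff, at 0.76 (SE 0.28), and Mafg, at 0.37 (SE 0.15), had an adjusted p of 0.322 each. Neither average held on both backgrounds. Maff differed by 1.51 (SE 0.37) without 5xFAD and 0.01 (SE 0.39) with it, at low group means of 2.12 to 5.96 CPM. Mafg differed by 0.01 (SE 0.20) without 5xFAD and 0.73 (SE 0.22) with it.

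The list of GABP partners and targets had an averaged median of -0.22 over 14 genes, with 3 positive. Of them 6 had an unadjusted p under 0.05 (15% of all genes) and 1 was called by DESeq2 (0.77%). The median was -0.06 in Dp16 against wild-type (4 positive) and -0.33 in 5xFAD-Dp16 against 5xFAD (1 positive). In the latter, 7 had an unadjusted p under 0.05, against 23.8% of all genes. The part of the length measure, positive in every 5xFAD-Dp16 library, was not tested. Gabpb1, whose product pairs with GABPA to form the active complex, had an averaged difference of -0.54 (SE 0.12, adjusted p = 0.159). Its mean CPM was 24.6 ± 5.33 (SD, n = 4) and 19.3 ± 1.18 without 5xFAD, in wild-type and Dp16, and 28.7 ± 5.55 and 18.2 ± 1.00 with it. Cox5b, a subunit of cytochrome oxidase, had -0.43 (SE 0.16, adjusted p = 0.322) on average. Its values were -0.10 (SE 0.23) without 5xFAD and -0.76 (SE 0.24) with it.

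The remaining lists follow the families and complexes of the other members. Other ETS family genes had a median of 0.14 over 15 genes (11 positive), and 0 had an unadjusted p under 0.05, against 15% of all genes. HMG and linker histone genes had -0.20 over 9 (3 positive, 1 with an unadjusted p under 0.05), and BRWD and BET bromodomain genes -0.01 over 7 (3 positive, 0). The MORC family with nuclear body genes had 0.10 over 11 (6 positive, 2), NRIP1 corepressors and receptors 0.14 over 19 (13 positive, 3), and speckle and splicing genes -0.09 over 16 (5 positive, 6). Biotin-dependent carboxylases and biotin genes had -0.02 over 8 (4 positive, 1), and other zinc finger genes of the BTB class 0.20 over 12 (9 positive, 1). DESeq2 called 0 of the genes of these lists in the averaged difference. On the 5xFAD background the medians of these lists ran from -0.37 (HMG) to 0.43 (ETS). There 7 of 9 HMG genes and 2 of 15 ETS genes had an unadjusted p under 0.05, against 23.8% of all genes.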

How the data were processed

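Raw read counts per gene and RPKM values were deposited by the authors; the counts carry no normalization and the RPKM are counts scaled by gene length and library total. Per the submitters' processing notes, HISAT2 2.1.0, HTSeq 0.6.1, SAMtools 1.5 and FastQC 0.11.5 were used with build GRCm38, with no roles or strand setting given. Per the labels' protocols, the library kit was strand-specific. Coordinates came from Gencode M21, joined by gene identifier (55144 of 55385 matched).

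Genes passing edgeR's filterByExpr (17019) were fitted in edgeR 4.0.16 with TMM factors, a mean per genotype and a sex term, and tested two-sided by quasi-likelihood, with p adjusted by Benjamini-Hochberg over all genes and a threshold of 0.05. Intervals are 95%. DESeq2 1.42.0 and other settings were alternatives. The length trend was removed with a loess offset per library. Library totals were 12483286 to 20385010 reads. The fit was tested on simulated data. The members, the 13 lists and the rule for named genes (all members; per list, those called or otherwise up to 2 by averaged p; the 3 most alike genes per member) were chosen with earlier results of these data known. Listed genes Pc and H1fx were not found by symbol. The p-values of the differences weigh each difference against the spread between animals, with 1 library per animal. Those of the length measure come from permutation within groups.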

Additional observations from a re-analysis of the deposited data

Results flagged for a closer look

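Among 40 groups of 4 libraries (10 members in 4 genotypes), the sample farthest from the others stood apart in 2 by Dixon's test at 95%, which chance gives in about 1 in 20 groups. Hmgn1 was lowest in wild-type replicate 4, at 74.0 CPM, with a gap of 0.871 of the range. That library also had the highest length measure of the wild-type group, 0.435. Gabpa was lowest in wild-type replicate 2, at 8.34 CPM, with a gap of 0.838 of the range, and that library has the fewest counted reads, 12483286. Both lie in the wild-type group. Without wild-type replicate 2, the averaged difference of Gabpa was 0.609 (edgeR, adjusted p = 0.0427), against 0.66 (adjusted p = 0.0982) with it.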

How the results depend on the processing

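The members' median differences kept their direction under all settings run in Dp16 against wild-type, 5xFAD-Dp16 against 5xFAD and the average. Counts of called members moved as follows, from 1 in Dp16 against wild-type, 0 in 5xFAD-Dp16 against 5xFAD and 1 on average. The share of all genes called higher is given in brackets. In Dp16 against wild-type they were 0 with the length trend removed (0.00588%) and with the replicate block (0.0%). Among males and with only the 2 groups compared they were 0 (0.0% each). They were also 0 without the 2 libraries least like the rest (0.00579%, libraries chosen after seeing the data), and 3 by DESeq2 (0.17%). In 5xFAD-Dp16 against 5xFAD they were 3 with no filter on low counts (4.64%) and 3 by DESeq2 (2.68%). There they were 5 among males (12%) and 6 with only the 2 groups (15.7%). On average they were 3 with no sex term (0.112%), 7 with no filter (2.51%), 8 among males (8.28%) and 6 by DESeq2 (0.511%). They were 0 on average with the length trend removed (24 of 17019 genes called higher) or the replicate block (0.0529%).

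With the length trend removed, the median came to 0.255 in 5xFAD-Dp16 against 5xFAD, 0.309 on average, -0.1 in 5xFAD-Dp16 against Dp16 and -0.107 for the interaction. In that setting the sign turned for Brwd1 in 5xFAD-Dp16 against 5xFAD (-0.085) and in 5xFAD against wild-type (-0.027), for Hlcs there (0.014), for Nrip1, Son and Hlcs in 5xFAD-Dp16 against Dp16 (-0.1, -0.083, -0.101) and for the interactions of Bach1, Nrip1, Son and Hlcs (-0.044, -0.065, -0.099, -0.115). Among males it turned for Hmgn1 in 5xFAD-Dp16 against 5xFAD (-0.039), for Gabpa, Bach1, Son and Hlcs in 5xFAD against wild-type (-0.187, -0.198, -0.148, 0.054), for Ets2 and Hlcs in 5xFAD-Dp16 against Dp16 (-0.098, -0.035) and for the interactions of Gabpa and Hlcs (0.169, -0.089). With only the 2 groups it turned for Hmgn1 (-0.065), Ets2 (-0.099) and Hlcs (-0.036) in the same comparisons. Gabpa in 5xFAD-Dp16 against Dp16 turned to 0.01 without the 2 libraries, 0.001 with no filter and 0.03 with no sex term, and Hlcs in 5xFAD against wild-type to 0.01 without the 2 libraries and 0.006 with the replicate block. None of these values was called, and the cause was not tested.

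Leaving out 1 library at a time gave 0 to 1 called members in Dp16 against wild-type and 0 to 3 on average. Over all genes, 0 to 2 and 10 to 43 were called in these fits. The interaction medians ran from -0.091 to 0.366. Signs turned within these ranges: in 5xFAD against wild-type, Bach1 -0.13 to 0.267, Brwd1 -0.025 to 0.124, Gabpa -0.017 to 0.288, Hlcs -0.295 to 0.375, Nrip1 -0.182 to 0.155 and Son -0.071 to 0.132; in 5xFAD-Dp16 against 5xFAD, Hmgn1 -0.045 to 0.148; in 5xFAD-Dp16 against Dp16, Gabpa -0.076 to 0.06; for the interaction, Bach1 -0.092 to 0.407, Gabpa -0.335 to 0.07, Hlcs -0.398 to 0.482 and Nrip1 -0.064 to 0.405.

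The deviations of same-numbered libraries had r from -0.365 to 0.316 over 24 pairs, 5 of them above 0.1 and 6 more than 0.1 below 0. The labels name no pairing of the animals, and these correlations cannot settle whether there was one. The replicate block served only as an alternative, with Morc3 on average at 0.55 (edgeR, adjusted p = 0.1). The low counts of Hlcs and Bach1 and the 4 animals per group limit the precision.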
